A study of Mus musculus with 2 samples.

Results

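The genes described here are 10 members of the bone morphogenetic protein (BMP) and transforming growth factor β (TGF-β) pathways, Bmp4, Bmp7, Nog, Sostdc1, Tgfb2, Wfikkn2, Id1, Id2, Id3 and Smad7, taken by their symbols from the 27998 genes listed. They were followed in single cells of the retinal pigment epithelium (RPE), the pigmented cell layer behind the photoreceptors, from 2 untreated male C57BL/6J mice, R1 and R2. The mice were at postnatal day 36, and the labels give their age as 4 to 5 weeks. Both eyes of a mouse were pooled, RPE sheets were released with trypsin, and viable single cells were sorted before droplet-based sequencing with unique molecular identifiers (UMIs), 1 for each captured molecule. No treatment or genotype was compared, so the only contrast lay between classes of cells within each mouse.

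Of 2844 cells of R1 and 2994 of R2, 2668 and 2846 passed the filters on gene number, mitochondrial share and doublets. Ttr, the transthyretin transcript that is abundant in RPE cells, took at least 5% of all UMIs in 2609 cells of R1 and 2827 of R2, the high-Ttr cells. It took less than 3% in 59 cells of R1 and 19 of R2, the low-Ttr cells, and 0 cells lay between these limits. The highest share among low-Ttr cells was 2.66% in R1 and 0.755% in R2, and the lowest among high-Ttr cells was 5.18% and 5.14%. These classes were set from the counts and are not labels of the study, and Ttr itself is no result of their comparison. Summed over cells, the high-Ttr class held 24100281 UMIs in R1 and 27043776 in R2, whereas the low-Ttr class held 192400 and 91115, so values in low-Ttr cells rest on few molecules. Cell barcodes were shared between the mice in 12 cases, none of them a low-Ttr cell in both mice.

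All 8 RPE markers were detected in high-Ttr cells and every one of these cells carried at least 3 of them. In low-Ttr cells 7 of the 8 were detected, with Best1 at 0 in both mice, and 52 of 59 cells in R1 and 15 of 19 in R2 carried at least 3. The summed level of the list was 37.1 and 26.9 UMIs per 10000 in low-Ttr cells against 380 and 441 in high-Ttr cells, so the low-Ttr class carried the RPE markers at a far lower level. If all Ttr of the low-Ttr cells came from free RNA, such RNA would bring 25.9 UMIs per 10000 of this list in R1 and 14.0 in R2, against 37.0 and 25.2 summed over these cells, so that much of their RPE signal is not above that limit. The melanosomal genes Mlana, Dct, Pmel and Tyrp1 went the other way, with 198 and 165 UMIs per 10000 in low-Ttr cells against 13.6 and 9.27. In R1 52 and in R2 14 low-Ttr cells combined UMIs of at least 2 of these pigment genes with Pax6 or Dkk3 and are called Pax6/Dkk3-positive pigment cells below. The rule is not particular to this class, since 286 of 2609 high-Ttr cells of R1 and 152 of 2827 of R2 also met it. The name is used below for low-Ttr cells only. Fibroblast or microglial genes, at least 3 of a list, marked 5 low-Ttr cells of R1 and 3 of R2, and all 8 rod markers were at 0.

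BMP ligands bind serine/threonine kinase receptors, which phosphorylate Smad1 and Smad5, and these enter the nucleus with Smad4 and induce the Id genes, whose products block basic helix-loop-helix factors. TGF-β ligands act through Smad2 and Smad3. Secreted antagonists such as Noggin hold the ligands away from their receptors, and inhibitory Smads such as Smad7 act inside the cell. In the eye, BMP signals take part in RPE specification, and TGF-β2 is known for driving cultured RPE cells towards a mesenchymal state.

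In GRCm38, Bmp4 spans chr14:46383520-46390669, Bmp7 chr2:172868012-172940321, Tgfb2 chr1:186622792-186705989, Nog chr11:89300638-89302332, Sostdc1 chr12:36314139-36318452 and Wfikkn2 chr11:94235956-94246005. The Id genes lie at chr2:152736251-152737410 (Id1), chr12:25093799-25097140 (Id2) and chr4:136143497-136145755 (Id3). No annotated gene on the same strand overlapped any of them, whereas Bmp4 and Tgfb2 each overlapped 2 genes on the opposite strand.

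RefSeq promoter windows of 300 bases (GRCm38.p6), from 250 bases before the start site to 50 after it, were given for 5 of the 10 genes. They are shown for 4 of these genes, trimmed to bases before the start site that no exon of the gene covers. Exons of Id3 covered all 250 bases before its start site, so its window is not shown. Capitals mark matches to Smad-binding motifs.
Tgfb2, chr1:186705990-186706239, minus strand: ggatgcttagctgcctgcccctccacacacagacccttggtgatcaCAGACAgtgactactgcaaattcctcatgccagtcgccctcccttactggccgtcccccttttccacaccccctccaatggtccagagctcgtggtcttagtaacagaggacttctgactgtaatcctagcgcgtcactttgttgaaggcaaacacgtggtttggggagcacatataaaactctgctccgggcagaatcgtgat
Bmp4, chr14:46390670-46390919, minus strand: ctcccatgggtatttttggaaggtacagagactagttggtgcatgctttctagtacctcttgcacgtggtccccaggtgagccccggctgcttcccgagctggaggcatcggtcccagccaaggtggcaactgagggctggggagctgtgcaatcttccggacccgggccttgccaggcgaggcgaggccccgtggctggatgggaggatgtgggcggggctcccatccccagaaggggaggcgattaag
Wfikkn2, chr11:94242708-94242829, minus strand: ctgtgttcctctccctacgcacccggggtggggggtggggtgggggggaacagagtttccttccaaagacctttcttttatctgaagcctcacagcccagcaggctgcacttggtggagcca
Id2, chr12:25096254-25096342, minus strand: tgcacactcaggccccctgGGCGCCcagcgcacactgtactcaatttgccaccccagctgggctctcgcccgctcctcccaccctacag
Smad-binding motifs were searched on both strands of the whole windows. GGCGCC, the core of the GC-rich element bound by Smad1 and Smad5, occurred once in the Id2 window, beginning at position -231 from the start site, and in 11.9% of 32851 windows. CAGACA, bound by Smad3 and Smad4, occurred once in the Tgfb2 window, at position -204, and in 21.0% of all windows. The palindrome GTCTAGAC was in none of the 5 windows and in 0.213% of all windows. The windows of Bmp4, Wfikkn2 and Id3 held none of the motifs. The stretches shown for Wfikkn2 and Id2 lay within the gene spans given above, so they are not the region upstream of the whole annotated gene. These are matches of letters and were not tested as binding sites.

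In high-Ttr cells the most abundant of these transcripts encoded a secreted antagonist. Levels are means over cells of UMIs per 10000 UMIs. Each UMI counts 1 molecule at its 3′ end, so no division by gene length applies. Sostdc1, a secreted antagonist of BMP and Wnt signals, had 7.64 in R1 and 7.84 in R2. Nog, which encodes the BMP-binding antagonist Noggin, had 2.10 and 2.83. Wfikkn2, which encodes a secreted inhibitor that binds GDF8 and GDF11, had 1.65 and 1.23. Each of the 3 antagonists was thus above 1 UMI per 10000 in both mice.

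Of the ligands, Bmp4 had 2.86 UMIs per 10000 in R1 and 2.27 in R2. Bmp7 had 0.742 and 0.648. Tgfb2 was nearly absent from high-Ttr cells, with 27 UMIs among all cells of R1 and 24 among those of R2, or 0.0145 and 0.00941 per 10000 as a mean over cells. The BMP ligands were therefore expressed and the TGF-β ligand was close to the limit of detection. Summed over cells, the exact 95% Poisson interval of Tgfb2 was 0.00738 to 0.0163 in R1. Any count above 0 gives an interval above 0, so this does not show expression. The cell with the most held 6 of the 27 UMIs in R1 and 4 of the 24 in R2.

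Of the targets, Id2 was the highest, with 4.58 UMIs per 10000 in R1 and 3.58 in R2. Id3 had 2.29 and 1.38. Id1 had 0.500 and 0.469. Smad7, the inhibitory Smad, had 0.101 and 0.113. The order of the genes by level was the same in both mice except that Nog stood above Bmp4 in R2 and below both Bmp4 and Id3 in R1. Between the mice, the ranges of Bmp4 and Nog, of Bmp4 and Id3, of Nog and Id3 and of Id3 and Wfikkn2 overlapped, so these neighbours did not differ beyond the spread of the 2 animals. Sostdc1, Id2, Bmp7, Id1, Smad7 and Tgfb2 each kept their place with no overlap.

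**Figure D1:**
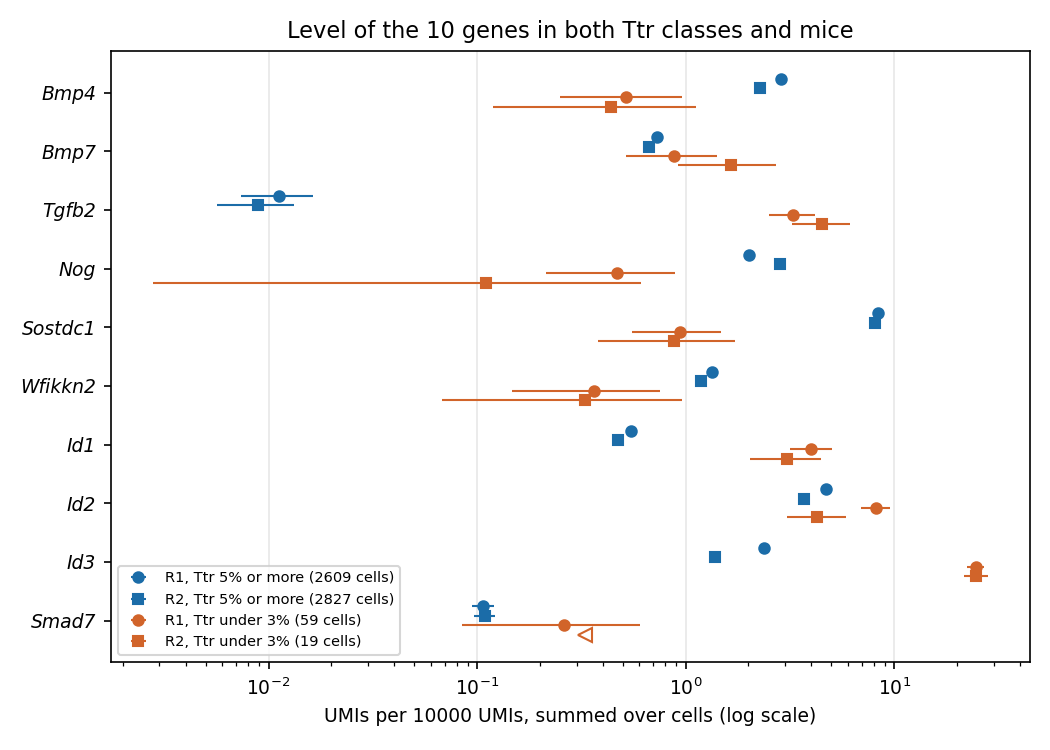
UMIs per 10000 UMIs summed over cells (log scale) of the 10 genes in high-Ttr (blue) and low-Ttr (orange) cells of R1 (circles) and R2 (squares), with exact 95% Poisson intervals that cover counting error only. The open triangle is the limit that a count of 0 allows for Smad7 in R2 (3 counts). Tgfb2, Id1 and Id3 lie higher in low-Ttr cells and Bmp4, Nog, Sostdc1 and Wfikkn2 lower, in both mice.

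To compare shares of cells, every cell was thinned to 2000 UMIs, which left none out. Sostdc1 was then found in 67.6% of high-Ttr cells in R1 (exact 95% Clopper-Pearson interval 65.7% to 69.4%) and 68.1% in R2 (66.3% to 69.8%). Id2 was found in 50.3% and 42.1%, Bmp4 in 41.1% and 34.1%, and Nog in 30.4% and 38.9%. Id3 was found in 28.0% and 18.8%, Wfikkn2 in 21.8% and 18.9%, Bmp7 in 13.1% and 9.80%, and Id1 in 8.36% and 7.50%. The low-Ttr cells were the other cells in which to read free RNA, with median depths of 3200 and 3836 UMIs against 8565 and 7696. There Sostdc1 was in 4 of 59 cells (6.78%) and 1 of 19 (5.26%) and Nog in 3 (5.08%) and 0, which for R2 allows a share of up to 17.6%, so the shares of both in high-Ttr cells lay far above those of the low-Ttr class. For Bmp7, with 13.6% and 21.1% of low-Ttr cells, and Id2, with 62.7% and 47.4%, the low-Ttr class was not lower and gives no background. Unthinned, Sostdc1 was in 88.1% and 88.7% of high-Ttr cells and Tgfb2 in 0.575% and 0.424%.

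The genes differed in how evenly the high-Ttr cells expressed them. The relative variance in excess of counting noise, a measure that is 0 when cells differ by sampling alone, was 0.201 in R1 and 0.255 in R2 for Bmp4. It was 0.333 and 0.331 for Sostdc1, and 0.572 and 0.567 for Id2. For comparison, the median over 7805 genes in R1 and 7216 in R2 was 2.01 and 2.35, a group that also holds sparse genes. Nog had 0.884 and 0.453, Wfikkn2 1.64 and 1.12, and Id3 1.32 and 2.15. Id1 had the widest spread of the better measured members, with 3.31 and 3.65. Bmp4 and Sostdc1 were thus the most even members in both mice, followed by Id2 in R1 and Nog in R2, and Wfikkn2, Id3 and Id1 were less even. The variation in Wfikkn2 moved with depth in R1, where the shallowest, middle and deepest of 3 equal groups of cells had 2.40, 1.55 and 0.912 UMIs per 10000, but not in R2, with 1.10, 1.52 and 1.05. Sostdc1 rose with depth in R1, from 5.76 over 8.25 to 9.11. Its correlation with the mitochondrial share was -0.252 and -0.140, whereas that of Wfikkn2 was 0.218 and 0.146. The part of depth and mitochondrial share in the spread of these genes was not tested.

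Over high-Ttr cells, the Id genes covaried with each other, and Nog and Wfikkn2 with each other but inversely with the Id genes. Covariation was described as Pearson's r of depth-corrected residuals over the cells of 1 mouse, 2609 in R1 and 2827 in R2. These cells share a library and an ambient RNA pool, and sparse counts hold r near 0. Of 45 pairs of members, 6 had an absolute r above 0.1 in both mice, and the median absolute r over all pairs was 0.0283 in R1 and 0.0211 in R2. By Spearman's rho after thinning none of these 6 pairs reached 0.1 in R2, where Id1 and Id3 had 0.0725, Id2 and Id3 0.0599, Wfikkn2 and Id2 -0.0571 and Nog and Wfikkn2 0.0508, so the pattern is weak in R2. For Id1 and Id3, r was 0.272 in R1 and 0.269 in R2. For Id2 and Id3 it was 0.314 and 0.182, and for Id1 and Id2 0.232 and 0.150. The pair of Nog and Wfikkn2 had 0.242 and 0.131. Wfikkn2 had -0.187 and -0.137 with Id2 and -0.180 and -0.101 with Id3, and Nog had -0.173 and -0.0989 with Id3. Bmp4 stood apart from this pattern, with values between -0.0758 and 0.0715 with every other member in both mice.

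**Figure D2:**
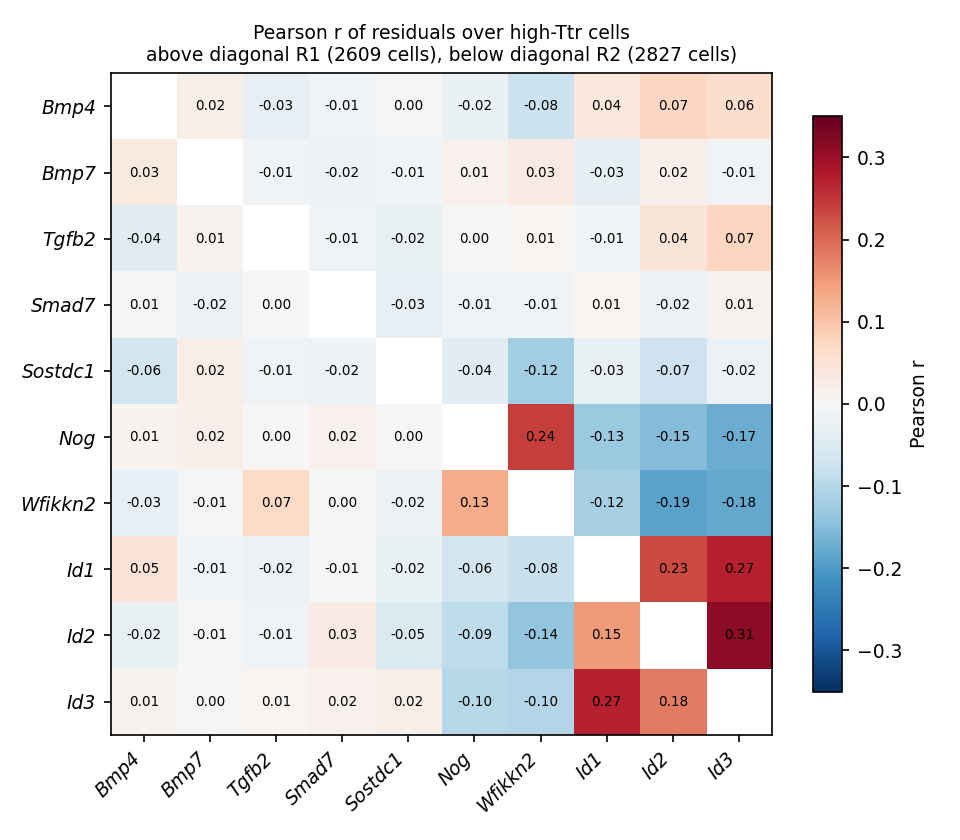
Pearson's r of residuals for each pair of the 10 genes over high-Ttr cells, with R1 above the diagonal and R2 below it. The block of Id1, Id2 and Id3 is red in both mice, Nog and Wfikkn2 are red with each other and blue with the Id genes, and the rows of Bmp4, Bmp7, Tgfb2 and Smad7 are pale.

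The same pattern is seen in levels after thinning. Id3 had 1.49 UMIs per 10000 in the 792 R1 cells with a Nog UMI and 2.58 in the 1817 without. In R2 it had 1.25 in 1101 cells and 1.45 in 1726, and there the exact 95% Poisson intervals, 1.11 to 1.41 and 1.32 to 1.58, overlapped. In cells with a Wfikkn2 UMI, Id3 had 1.43 against 2.47 in R1 and 0.907 against 1.48 in R2, with intervals that did not overlap in either mouse. For Id1 the split by Wfikkn2, 0.273 against 0.561 in R1 and 0.374 against 0.500 in R2, had overlapping intervals in R2. Id1 went with Id3, at 0.787 in cells with an Id3 UMI against 0.386 without in R1 and 0.810 against 0.399 in R2. In cells with a Bmp4 UMI after thinning, Id3 had 2.21 against 2.28 in R1 and 1.38 against 1.37 in R2. By the same split Id1 had 0.588 against 0.436 in R1 and 0.513 against 0.456 in R2, with overlapping intervals in both mice. In R1 1072 of 2609 cells held a Bmp4 UMI after thinning and 2072 before it. For R2 these were 964 and 1968 of 2827 cells. Many cells counted as without a Bmp4 UMI thus held the transcript, so the split does not compare cells with and without it. The same limit holds for the other splits. In R1, cells with a UMI after and before thinning were 792 and 1630 (Nog), 568 and 1260 (Wfikkn2) and 731 and 1488 (Id3). In R2 they were 1101 and 1948, 535 and 1275, and 531 and 1143. Sostdc1, like Bmp4, split Id3 by little, 2.22 against 2.32 and 1.32 against 1.47. In R2 r of Nog and Wfikkn2 was -0.0102 in the shallowest cells and 0.218 in the deepest, and that of Id2 and Id3 0.0808 and 0.237. The corresponding values also rose in R1, from 0.197 to 0.311 and from 0.236 to 0.377. The part of depth in these values was not tested. Over high-Ttr cells the immediate-early and heat shock genes of the dissociation list correlated with the Id genes between -0.0131 and 0.0385. With the pigment genes, Id1, Id2 and Id3 had -0.122, -0.126 and -0.108 in R1 and -0.0553, 0.00277 and -0.00923 in R2. Wfikkn2 had 0.254 and 0.112 with the pigment genes and -0.248 and -0.168 with the RPE markers. The Id genes had between -0.0277 and 0.0584 with the RPE markers. The part of these measures in the pattern was not tested.

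**Figure D3:**
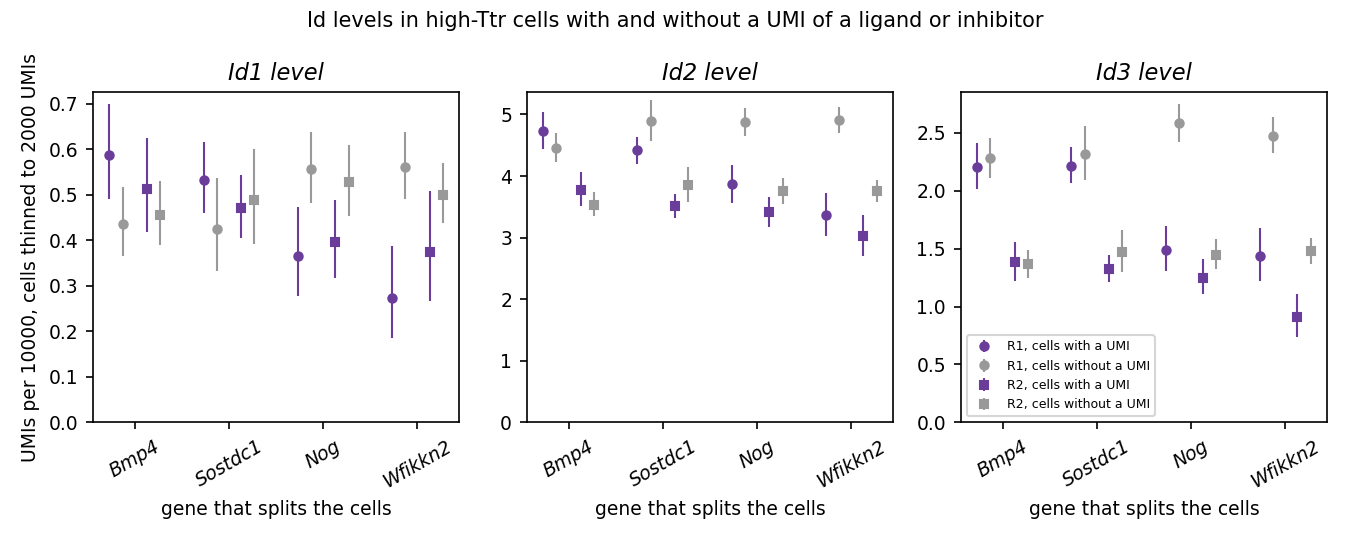
Levels of Id1, Id2 and Id3 (UMIs per 10000, cells thinned to 2000 UMIs) in high-Ttr cells with (purple) and without (grey) a UMI of Bmp4, Sostdc1, Nog or Wfikkn2, in R1 (circles) and R2 (squares), with exact 95% Poisson intervals. The purple points lie below the grey ones for Nog and Wfikkn2 in all 3 panels and both mice, with overlapping intervals in part of R2, whereas for Bmp4 and Sostdc1 the intervals overlap in every panel.

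The genes whose cell-to-cell pattern was most like each member were ranked by the weaker r of both mice among 7180 genes with a UMI in at least 5% of high-Ttr cells. For Id3 the leading genes were Id1, Id2 and Rab37, the last with r of 0.180 in R1 and 0.110 in R2, and the lowest was Ramp2 with -0.253 and -0.141. For Id2 they were Id3, Id1 and Ftl1, and the lowest was Wfikkn2. Each of these Id genes thus had the other Id genes as its nearest genes. For Nog the leading genes were Ramp2 (0.316 and 0.140), Aplp1 and Wfikkn2, and the lowest was Id3. For Wfikkn2 they were Serpine3 (0.294 and 0.191), Htr3a and Aplp1, and the lowest was Pon1 (-0.222 and -0.146). Aplp1 was thus near both Nog and Wfikkn2, and Ramp2, nearest to Nog, was lowest for Id3. For Sostdc1 the leading genes were Bsg (0.307 and 0.188), Enpp2 and Igfbp2, and the lowest was the nuclear transcript Malat1 (-0.207 and -0.152). For Bmp4 they were Malat1 (0.0930 and 0.0937), Vegfa and Kcnj13, and the lowest was Ptgds (-0.0927 and -0.0894). For Bmp7, C1d led with only 0.0536 and 0.0476, followed by Trim33 and Spred2, and the lowest was Crb3. The ligands thus had weaker partners than the antagonists and Id genes.

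Between the low-Ttr and the high-Ttr cells of the same mouse, 7 of the 10 genes changed. Tgfb2, Id3 and Id1 were higher in low-Ttr cells, and Sostdc1, Nog, Bmp4 and Wfikkn2 were lower. UMIs were summed per mouse and class, which gave 4 libraries, and tested with edgeR's quasi-likelihood test with mouse as a block over 11492 genes. At a Benjamini-Hochberg adjusted p below 0.05, 10.4% of all genes were called, 4.19% as higher and 6.22% as lower. Of the 10 members, 3 were called as higher and 4 as lower. The members were chosen with earlier results of these data known, so these counts are no test of the pathways. Fold changes are log2 of low-Ttr over high-Ttr on the TMM scale, on which the median over all genes was -0.34. Without TMM scaling that median moved up by 0.72 to 0.38 and with DESeq2 by 0.61 to 0.27, and the share of higher genes among all calls was 40.3%, 73.9% and 63.5% with these scalings. The 7 members kept their direction and their call under each of them.

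Tgfb2 changed the most. It had 63 UMIs in 27 of 59 low-Ttr cells of R1 and 41 UMIs in 11 of 19 of R2, a level of 3.12 and 3.44 UMIs per 10000 over cells. Per UMI of the class this was 292-fold above the high-Ttr cells in R1 (exact 95% counting interval 183 to 477) and 507-fold in R2 (299 to 877). The log2 fold change was 7.82 ± 0.52 (approximate SE, adjusted p = 1.81e-47, edgeR, higher in 2 of 2 mice). The cell with the most carried 7 UMIs in R1 and 10 in R2, and 59 and 32 of the UMIs lay in Pax6/Dkk3-positive pigment cells. In the fibroblast- or microglia-marked cells there were 1 and 0. In R2, however, 29 of the 41 UMIs, against 9 of 63 in R1, lay in the 5 cells (4 in R1) that carried at least 3 of 5 Muller glia genes. Of these cells, 4 in each mouse were themselves Pax6/Dkk3-positive pigment cells. They held 42467 of the 91115 UMIs of the class in R2 and 15706 of 192400 in R1. After thinning, Tgfb2 was in 2 of the 5 in R2 and 2 of the 4 in R1. Among cells marked for no other type it was then in 4 of 11 and 21 of 50. Cells with at least 3 Muller glia genes made up 6.78% and 26.3% of low-Ttr cells but 0.0767% and 0.106% of high-Ttr cells. The summed level of the list was higher in the high-Ttr class, 29.6 and 29.4 UMIs per 10000 against 10.3 and 13.8. Nearly all high-Ttr cells carried fewer than 3 of the 5 genes, so this sum does not stand for the whole list. Aqp4 was at 0 in high-Ttr cells of R1 and Abca8a in those of R2. Without all cells marked for another type the log2 fold change of Tgfb2 was 7.39 ± 0.74 (adjusted p = 6.53e-21, edgeR). Cells marked for no other type held 53 and 12, a level over cells of 3.30 and 3.08 UMIs per 10000. They are part of the class, so a likeness to its level is no independent result. Summed over cells in R2, they had 3.01 UMIs per 10000 (1.55 to 5.26), and the cells with Muller glia genes 6.83 (4.57 to 9.81). In R1 these values were 3.30 (2.48 to 4.32) and 5.73 (2.62 to 10.9). The exact 95% Poisson intervals overlapped in both mice.

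Id3 was found in 54 of 59 low-Ttr cells of R1 and all 19 of R2, before and after thinning. Its level was 25.8 and 31.2 UMIs per 10000, with a median cell of 24.3 and 19.1 and a highest cell of 75.3 and 87.2. The log2 fold change was 3.02 ± 0.37 (adjusted p = 1.28e-14, edgeR). Id1 had 3.98 and 3.69 UMIs per 10000 in low-Ttr cells, 7.31-fold and 6.51-fold above the high-Ttr cells per UMI, and a log2 fold change of 2.06 ± 0.39 (adjusted p = 5.43e-06). Every low-Ttr cell with an Id1 UMI, 29 in R1 and 8 in R2, also had an Id3 UMI. With Id3 in 54 of 59 and all 19 cells, this overlap says little about a link between the 2 genes. Id2, in contrast, did not pass the test. It had 8.19 and 5.87 UMIs per 10000 in low-Ttr cells against 4.58 and 3.58, a ratio per UMI of 1.73 (1.47 to 2.03) in R1 and 1.16 (0.827 to 1.59) in R2, but a log2 fold change of -0.20 ± 0.35 on the TMM scale (adjusted p = 0.825). Its sign depended on the scaling, with 0.55 without TMM and -0.15 with DESeq2. Id2, which covaried with Id1 and Id3 within high-Ttr cells, was thus not called where they were. The difference between the genes was not tested. Summed over cells in R2, cells marked for no other type had 8.02 UMIs per 10000 of Id2, 6.27 of Id1 and 41.6 of Id3. Cells marked for another type, with 51239 of the 91115 UMIs of the class, had 1.37, 0.585 and 11.5. In R1 these values were 8.17, 4.61 and 27.7 against 8.13, 0.938 and 8.75. The ratio of 1.16 for Id2 in R2 covers both kinds of cell. Id2 was called in no alternative setting.

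**Figure D4:**
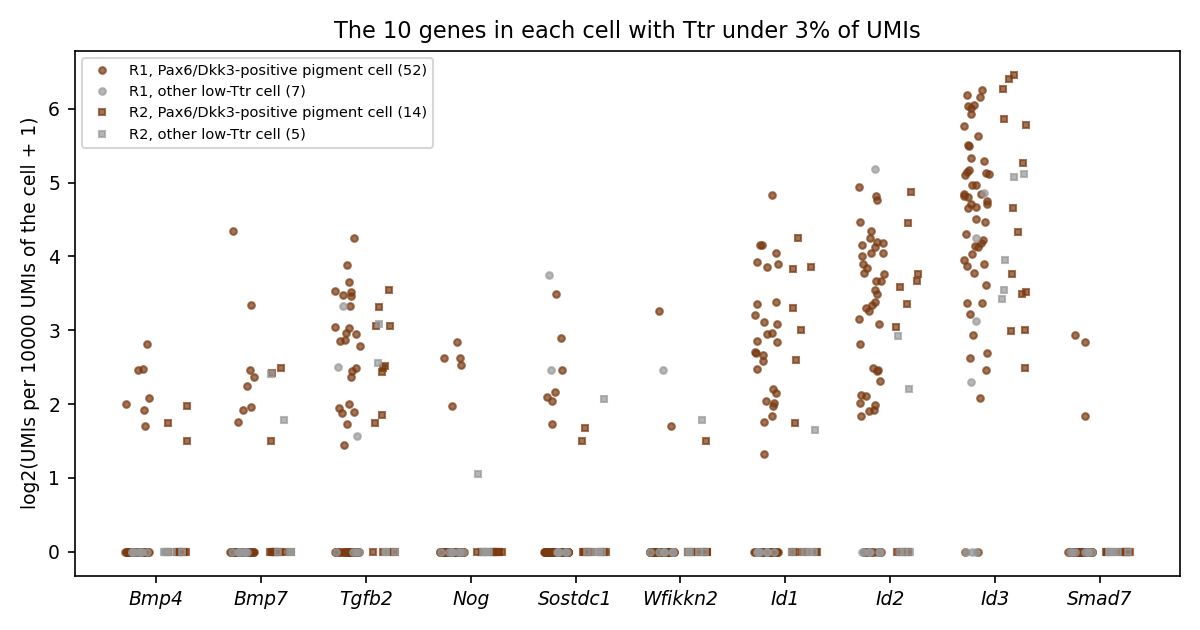
Each of the 59 low-Ttr cells of R1 (circles) and 19 of R2 (squares) for the 10 genes, as log2(UMIs per 10000 UMIs of the cell + 1), with Pax6/Dkk3-positive pigment cells in brown and other cells in grey. Id3 is above 0 in all but 5 cells, Tgfb2, Id1 and Id2 in part of them, and the antagonists and Bmp4 in few.

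The antagonists and Bmp4 were lower. Sostdc1 had 18 UMIs in low-Ttr cells of R1 and 8 in R2, 0.855 and 0.381 UMIs per 10000, or 8.91-fold and 9.21-fold below the high-Ttr cells per UMI. Its log2 fold change was -3.90 ± 0.43 (adjusted p = 2.35e-17, edgeR). Nog had 9 UMIs and 1 UMI, 0.411 and 0.0564 per 10000, with a log2 fold change of -3.49 ± 0.51 (adjusted p = 6.08e-10). The ratio per UMI in R2 rests on that single UMI, 25.7-fold lower with an interval from 4.62 to 1016. Bmp4 had 10 and 4 UMIs, 0.447 and 0.375 per 10000, with a log2 fold change of -3.14 ± 0.48 (adjusted p = 4.57e-09). Wfikkn2 had 7 and 3, 0.260 and 0.225 per 10000, with -2.57 ± 0.55 (adjusted p = 7.56e-05). All 4 were lower in both mice. In R1, 5 of the 7 Wfikkn2 UMIs lay in 1 low-Ttr cell and 4 of the 10 Bmp4 UMIs in another. If all Ttr of the low-Ttr cells came from free RNA, it would make up 6.56% of their UMIs in R1 and 3.14% in R2 and bring 0.543 and 0.253 UMIs per 10000 of Sostdc1, 0.187 and 0.0710 of Bmp4 and 0.132 and 0.0884 of Nog. For Tgfb2 it would bring 0.00243 and 0.000753. Summed over cells on the same scale, Sostdc1 had 0.936 and 0.878, Bmp4 0.520 and 0.439 and Nog 0.468 and 0.110, the last from the single UMI. The 95% Poisson intervals lay above the ambient values for Sostdc1 and Bmp4 in both mice and for Nog in R1, but not for Nog in R2. For Sostdc1 the lower bound in R1 was 0.554, close to the ambient 0.543, and 6 of its 18 UMIs lay in 1 cell. In R2 all 8 Sostdc1 UMIs lay in cells with at least 3 Muller glia genes, which held 42467 of the 91115 UMIs of the class. Cells marked for no other type held 0 among 39876 UMIs.

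Bmp7 and Smad7 did not pass the test. Bmp7 had 0.831 and 0.925 UMIs per 10000 in low-Ttr cells against 0.742 and 0.648, with a log2 fold change of 0.04 ± 0.47 (adjusted p = 0.983). Of its 17 and 15 low-Ttr UMIs, 9 lay in 4 cells of R1 and 14 in 5 cells of R2 that carried the Muller glia genes. These cells held 15706 of 192400 and 42467 of 91115 UMIs of the class. Without all cells marked for another type the log2 fold change of Bmp7 was -1.57 (adjusted p = 0.299). Smad7 had 5 UMIs in R1 and 0 in R2, with a log2 fold change of -0.14 ± 1.08 (adjusted p = 0.968).

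**Figure D5:**
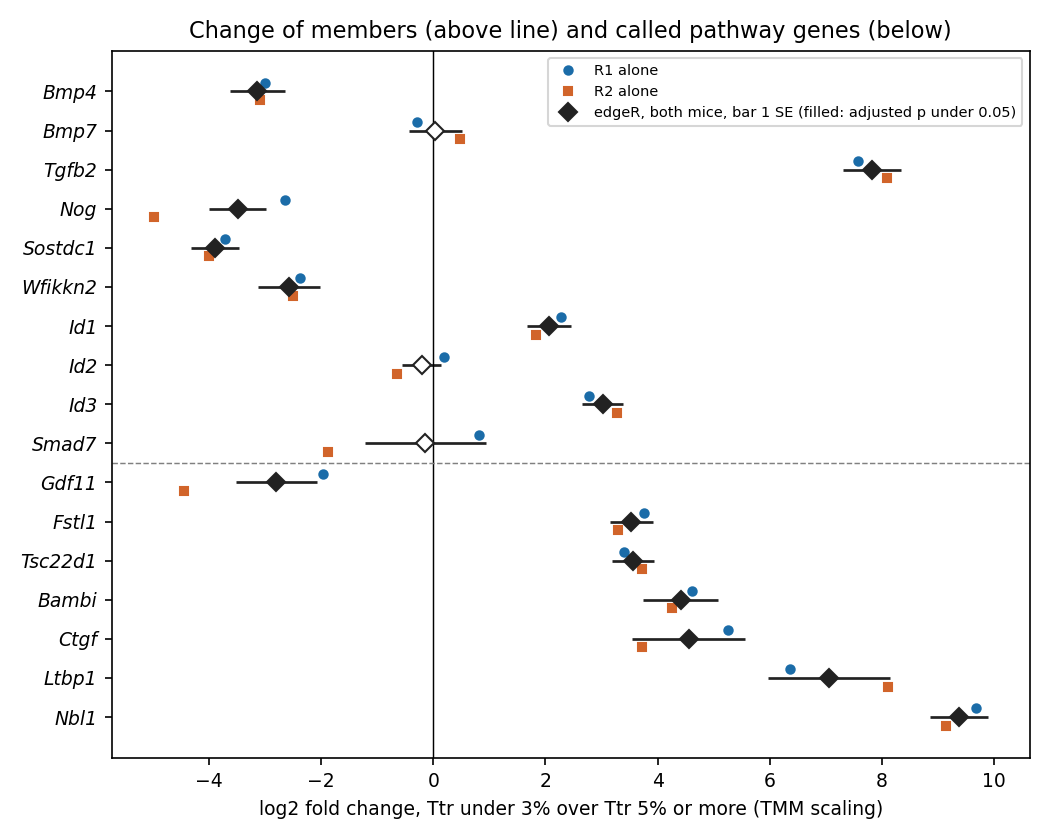
Log2 fold changes of low-Ttr over high-Ttr cells for the 10 genes (above the dashed line) and 7 of the 8 other pathway genes past the threshold (below it). Diamonds show edgeR over both mice with 1 approximate SE, filled where adjusted p was below 0.05, and circles and squares show R1 and R2 alone. Both mice lie on the same side of 0 for every filled gene.

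The change of the 7 genes was as large in the Pax6/Dkk3-positive pigment cells alone, 52 in R1 and 14 in R2, in which no microglial marker had a UMI and the 6 fibroblast markers had 1 UMI in each mouse. There Id3 had 28.2 and 35.1 UMIs per 10000 and Tgfb2 3.24 and 3.79. Bmp4 had 0.507 and 0.509, and Sostdc1 0.644 and 0.288. All 7 members were called in this comparison, as in each other setting. Of the pigment cells, however, 4 in each mouse carried at least 3 of the Muller glia genes. In R2 each of these held Tgfb2, at 4.64 to 7.35 UMIs per 10000. The genes of the dissociation list were at 5.17 and 22.3 UMIs per 10000 in low-Ttr cells against 2.48 and 5.61 in high-Ttr cells, but at 2.21 and 1.60 in the Pax6/Dkk3-positive pigment cells. The median mitochondrial share was 2.57% and 3.35% in low-Ttr cells against 1.28% and 1.26%, and its part in the change was not tested.

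Of 68 further genes of both pathways, 40 passed the filter on low counts and 8 of these were called, 7 as higher and 1 as lower in low-Ttr cells. Over all 11492 genes tested, 10.4% were called, 4.19% as higher and 6.22% as lower. The list was chosen with earlier results of these data known, so these counts are no test of the pathways. The median log2 fold change of the 40 was 0.74, beside -0.34 over all genes tested. The filter used the counts of both classes, so a gene scarce in high-Ttr cells could pass through the low-Ttr cells where it was high. Nbl1, with 7 and 22 UMIs in high-Ttr cells, and Ltbp1, with 20 and 5, needed their low-Ttr counts to pass. Neither that median nor the counts of higher genes here and below therefore measure a direction of the pathways. Among 18 secreted or membrane regulators, 9 were tested and 4 were higher. These were Nbl1, a BMP antagonist of the DAN family (9.38 ± 0.52), Ltbp1, which tethers latent TGF-β in the matrix (7.05 ± 1.09), Bambi, a pseudoreceptor that damps both pathways (4.41 ± 0.67), and Fstl1, a secreted follistatin-like protein (3.53 ± 0.39). Nog, Sostdc1 and Wfikkn2 were lower, whereas Nbl1 and Bambi were called as higher, Nbl1 only through its low-Ttr counts at the filter. An exchange between these genes was not tested. Nbl1 had 74 UMIs in low-Ttr cells of R1 and 79 in R2 against 7 and 22 in all high-Ttr cells, and 17 and 41 of these UMIs lay in the fibroblast- or microglia-marked cells. For Bambi these cells held 2 of 28 and 0 of 12 UMIs, but in R2 the cells with Muller glia genes held 11 of the 12, and 29 of the Nbl1 UMIs. The cells with Muller glia genes also held 42467 of the 91115 UMIs of the class in R2.

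Among 10 further targets, 5 were tested and 3 were higher, beside 4.19% of all genes tested. Tsc22d1, a transcription factor induced by TGF-β, had 363 and 279 UMIs in low-Ttr cells, or 17.7 and 25.4 per 10000 against 1.15 and 1.29, with a log2 fold change of 3.56 ± 0.37 (adjusted p = 1.53e-19, edgeR). Ctgf, a matrix-associated growth factor, had 21 and 4 UMIs with 16 in 1 cell marked for another type, and a log2 fold change of 4.56 ± 1.01 (adjusted p = 0.00015). Without cells marked for another type 5 of the 8 genes were called, Nbl1, Ltbp1, Bambi, Fstl1 and Tsc22d1, and Ctgf and Gdf11 were not.

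None of the 9 receptors and 6 Smads tested passed the threshold, with medians of 0.68 and 0.08, and at an unadjusted p below 0.05 in edgeR only the receptor Acvr2b did, with 0 UMIs in low-Ttr cells of either mouse. DESeq2 called none of them, edgeR without TMM called Bmpr2 and Tgfbr3, and edgeR without the mouse block called Acvr2b, Tgfbr1 and Smad6. In high-Ttr cells no receptor or Smad reached 0.5 UMIs per 10000 in both mice. The nearest, named after their values were seen, were the coreceptor Tgfbr3 with 0.483 and 0.382 and the BMP receptor Bmpr1a with 0.343 and 0.323. Of 15 further ligands 6 were tested and only Gdf11, a ligand of the activin branch that Wfikkn2 binds, was called. DESeq2 also called the ligands Bmp3 and Gdf10. These did not pass the filter on low counts, and edgeR without that filter did not call them. Without the mouse block, edgeR also called Tgfb1. Gdf11 had 5 UMIs and 0 in low-Ttr cells against 0.770 and 0.646 UMIs per 10000 in high-Ttr cells, with a log2 fold change of -2.80 ± 0.72 (adjusted p = 0.00164, edgeR). Bmp2, also named after its values were seen, was the further BMP ligand at a level like that of Bmp7, with 0.728 and 0.788 in high-Ttr cells and 1.09 and 1.63 in low-Ttr cells, and a log2 fold change of -0.01 ± 0.46 (adjusted p = 0.994). None of the 5 intracellular regulators was called.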

How the data were processed

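Droplet single-cell RNA sequencing of 2 mice gave 1 library each. The authors aligned reads to GRCm38 with Cell Ranger 1.2.0 and deposited UMI counts per gene and cell, whole numbers with no normalization or removal of ambient RNA. The tools bcl2fastq 2.20.0.422 and Cell Ranger come from the submitters' processing notes. The labels and the paper name different versions of the 10x chemistry.

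Cells with fewer than 500 genes or over 5% mitochondrial UMIs were left out, as was the top 4% by a doublet score made from artificial doublets (25% of profiles, nearest 1%, 10 principal components, 2000 variable genes), which removed 114 cells of R1 and 120 of R2, none with low Ttr. UMIs were summed per mouse and Ttr class and tested with edgeR 4.0.16 (R 4.3.3; TMM, filterByExpr, quasi-likelihood test, Benjamini-Hochberg). The sums of a mouse come from the same animal and are therefore paired, and mouse entered as a block. With 2 mice, p-values rest on 4 sums. The SE of a log2 fold change was approximated as its size divided by the square root of F. Residuals for correlations used a negative binomial with theta of 100. Intervals and floors (3 counts) cover counting error only. R1 and R2 are separate libraries, since their gene counts gave a chi-square statistic of 20.8 for each degree of freedom.

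The 10 genes, the list of 68 further pathway genes and the marker lists were chosen with earlier results of these data known. Ltbp4 was listed under 2 identifiers and left out. Of the pathway genes past the threshold, 1 target is counted but not reported here. Genes were named by a rule: the 10 members, further pathway genes past the threshold (at most the 20 with the largest change), receptors and Smads with at least 0.5 UMIs per 10000 in both mice, and for members at that level the 3 highest and the lowest correlated gene. The test was checked on simulated sums. Of 200 changed genes edgeR recovered 26.5% at a log2 change of 2 and 73% at 4, DESeq2 1.42.0 19% and 56.5%, and with no gene changed both called 0 genes. Alternatives covered scaling, tool, low-count filter, block, Ttr limits, marked cells, doublets, mitochondrial limit, ambient RNA and Ttr. Python 3.11.15, numpy 2.4.6, scipy 1.17.1 and scikit-learn 1.9.0 were used.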

Additional observations from a re-analysis of the deposited data

How the results depend on the processing

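Values in low-Ttr cells rest on 78 cells, where a count of 0 allows up to 0.156 UMIs per 10000 in R1 and 0.329 in R2. The 7 members called kept direction and call in all 13 alternatives, 1 of them, without fibroblast- or microglia-marked cells, chosen after seeing the data. Their log2 fold changes ranged from 7.39 to 8.57 for Tgfb2, 2.93 to 3.77 for Id3, 1.97 to 2.81 for Id1, -4.75 to -3.16 for Sostdc1, -4.22 to -2.75 for Nog, -3.76 to -2.42 for Bmp4 and -2.88 to -1.85 for Wfikkn2. With R1 or R2 alone, values without a test, all 7 kept their direction; leaving out a mouse gives no test and so no count of calls. Genes not called changed sign: Bmp7 to -0.0527 without a low-count filter, -0.0349 with a low-Ttr limit of 2%, -1.57 without cells marked as another type, -0.00145 in Pax6/Dkk3-positive pigment cells and -0.00898 after ambient subtraction; Id2 to 0.55 without TMM and 0.0521 without marked cells; and Smad7 to 0.54 without TMM, 0.24 without marked cells, 0.0668 in the pigment cells and 0.0112 without fibroblast- or microglia-marked cells.

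All genes called numbered 1197, but 721 without marked cells, in which fewer cells were summed. Without the replicate block, that is, ignoring that both sums of a pair come from the same mouse, 2101 genes were called, with 7 members and 15 instead of 8 further pathway genes. The pathway genes called numbered 13 without TMM, 14 with DESeq2, each including the 8, and 5 without marked cells. Of the 28 pairs of members other than Tgfb2 and Smad7, correlations over high-Ttr cells moved by more than the spread between mice in 16 with Spearman's rho after thinning and in 10, 6 and 9 with the shallowest, middle and deepest cells alone. That rho was 0.124 in R1 and 0.0725 in R2 for Id1 and Id3 and -0.114 and -0.0300 for Nog and Id3. The cause was not tested.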
